A study of Mus musculus with 2 samples.

Results

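Nuclear copies of mitochondrial DNA are stretches of the mitochondrial genome that were inserted into chromosomes. The 3 genes described here, Gm13340, Gm29216 and Gm20594, carry such stretches and are 3 of the 46130 genes with a row in the table. They were chosen by symbol because their rows are among the highest of both libraries. Their levels and ranks are therefore a description of how they were chosen, and none of them is tested. The cells were wild-type mouse embryonic stem cells of the feeder-depleted line DTCM23/49 XY, a pluripotent cell type, which received 200 µM 4-thiouridine (4sU), a uridine analogue that enters RNA while it is made, for 10 min. The 4sU-containing RNA was captured on beads and sequenced as the labeled library, and the RNA left in the supernatant was sequenced as the unlabeled library, which the labels name both preexisting and total RNA. Each pool is 1 library of replicate 1, so no difference below has a replicate check and no test was made. The values are relative abundances per transcript length, called TPM by the authors, and each column sums to 10 times a TPM total. Shares are given in percent of the column total over exon and intron rows. Read counts are not in the table, so depth and counting error are unknown.

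Mitochondrial DNA codes for the RNAs of its own ribosome, for transfer RNAs and for core subunits of the respiratory chain. It is transcribed inside the organelle as long polycistronic RNAs that are cut into the separate transcripts. Where a nuclear copy is nearly identical to the mitochondrial sequence, a short read from one also matches the other. None of the 37 transcripts encoded in mitochondrial DNA in GENCODE M21 (13 messenger RNAs, 2 ribosomal RNAs and 22 transfer RNAs) had a row in the table. Reads of mitochondrial RNA and reads of a nuclear copy therefore cannot be told apart in the values below.

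Gm13340 (ENSMUSG00000083563) is a single-exon unprocessed pseudogene of 1545 bases at chr2:22588103-22589647 on the minus strand of GRCm38. It aligned to mt-Co1, which codes for subunit 1 of cytochrome c oxidase, from its first to its last base, with 37 substitutions and no gap. Gm29216 (ENSMUSG00000101249) is a single-exon unprocessed pseudogene of 492 bases at chr1:24615706-24616197 on the minus strand. It aligned to the last 483 bases of the same gene, positions 1063 to 1545, and differed from it at 1 base. Over those 483 bases Gm13340 carried 13 of its substitutions, and Gm13340 and Gm29216 differed from each other at 14 bases. The next stretches show how the copies differ from mt-Co1 in the same part of it. They cover positions 1063 to 1165 of mt-Co1, counted from 1 at its first base, at chrM:6390-6492, chr1:24616086-24616188, chr2:22588483-22588585 and chr11:90538861-90538963, the last being Gm11512, a more diverged copy of mt-Co1. Sequences are from the GENCODE M21 transcripts, 5′ to 3′ on the strand of the transcript, and capitals mark bases that differ from mt-Co1.

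mt-Co1: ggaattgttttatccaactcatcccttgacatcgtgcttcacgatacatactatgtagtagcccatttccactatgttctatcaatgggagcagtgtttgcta
Gm29216: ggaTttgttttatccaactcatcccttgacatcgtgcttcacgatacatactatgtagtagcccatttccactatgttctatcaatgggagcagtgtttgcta
Gm13340: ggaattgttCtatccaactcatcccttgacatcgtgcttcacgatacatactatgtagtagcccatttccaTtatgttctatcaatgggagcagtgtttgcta
Gm11512: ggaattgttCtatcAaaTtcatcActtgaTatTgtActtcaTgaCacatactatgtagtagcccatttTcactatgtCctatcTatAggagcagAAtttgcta

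A1066T is the single substitution in the aligned part of Gm29216. That part starts at base 10 of Gm29216, and A1066T lies close to its edge. Gm13340 carried T1072C and C1134T in this stretch, and Gm11512 carried 15 substitutions, of which T1072C was one. Of the 443 windows of 50 bases in Gm29216, 430 (97.1%) occur letter for letter in a mitochondrial transcript. In Gm13340 this was so for 411 of 1496 windows (27.5%), and for 80 of 1446 windows of 100 bases (5.53%). The longest stretch without a difference from mt-Co1 was 479 bases in Gm29216 and 148 bases in Gm13340. Of the windows of 50 bases, 81 in Gm29216 (18.3%) and 114 in Gm13340 (7.62%) also occur in another nuclear transcript of the table, in both cases a copy of mt-Co1. Found in neither kind of transcript were 13 windows of 50 bases in Gm29216 and 1047 in Gm13340.

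Gm20594 (ENSMUSG00000096887) is annotated as protein-coding. It is a single exon of 449 bases at chr6:79817916-79818364 on the plus strand, and RefSeq lists Mtrnr2l as its synonym. It aligned to positions 645 to 1077 of mt-Rnr2, the 16S ribosomal RNA of the mitochondrion, with 41 substitutions over 429 aligned bases, 4 bases of mt-Rnr2 missing and 6 extra bases. Its annotated coding sequence of 111 bases, chr6:79818251-79818361, is shown beside the part of mt-Rnr2 to which it aligned, chrM:2070-2170, because 4 of its 41 substitutions and its longest unchanged run lie there. Capitals mark bases that differ from mt-Rnr2 or have no partner in it.

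mt-Rnr2: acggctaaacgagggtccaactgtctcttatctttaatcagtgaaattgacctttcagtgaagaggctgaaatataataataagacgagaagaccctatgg
Gm20594: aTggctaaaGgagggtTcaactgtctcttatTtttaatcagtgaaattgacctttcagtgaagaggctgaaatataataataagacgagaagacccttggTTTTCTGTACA

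The substitutions here were C978T, C986G, C993T and C1008T, counted from the first base of mt-Rnr2. The longest run without a difference was 65 bases. Of the 400 windows of 50 bases in Gm20594, 16 (4%) occur in a mitochondrial transcript and 0 occur in another nuclear transcript of the table, and of the 350 windows of 100 bases 0 occur in either. Gm20594 thus shared a smaller part of its windows with its mitochondrial transcript than Gm13340 and Gm29216 did. Gm11512 shared less still, with 5 of 614 windows of 50 bases (0.814%) and a longest run of 54 bases.

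**Figure D1:**
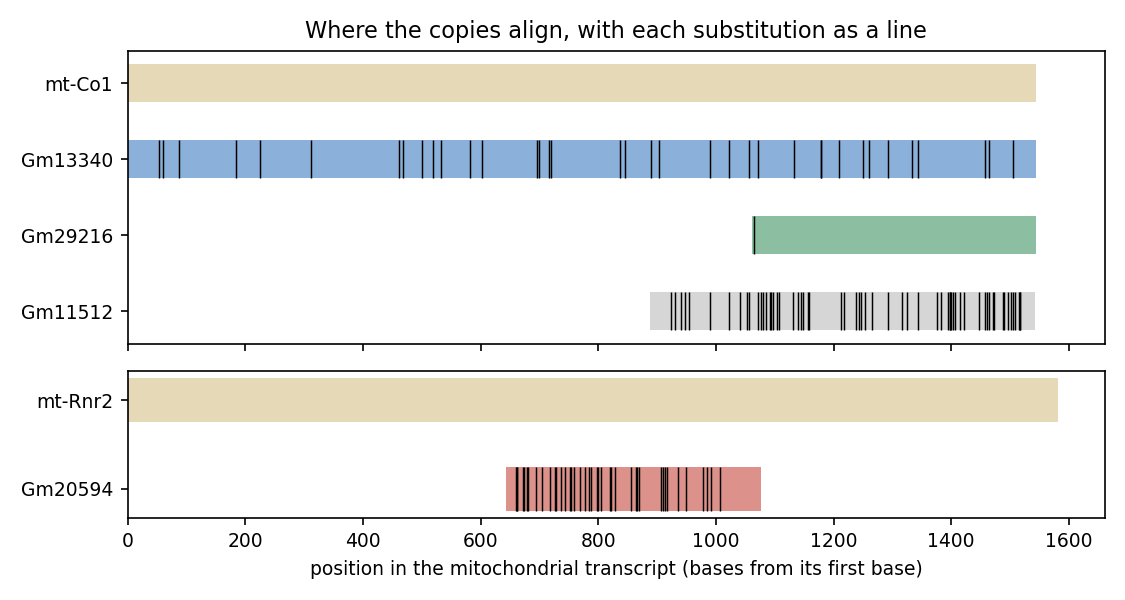
Position of 4 nuclear copies along the mitochondrial transcript they align to, in bases from its first base, with each substitution drawn as a vertical line. Gm13340 spans mt-Co1 with 37 substitutions, Gm29216 holds its last 483 bases with 1, and Gm20594 covers positions 645 to 1077 of mt-Rnr2 with 41.

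All 3 genes took a smaller share of the labeled than of the unlabeled library. Gm20594 had a value of 71133 in labeled and 253463 in unlabeled RNA, which is 0.711% and 2.53% of the column totals and a labeled to unlabeled share ratio of 0.281. Reads that matched ribosomal RNA were removed by the authors before alignment, and whether mt-Rnr2 was among the sequences used for this is not given in the sources used here. Gm13340 had 78402 and 127547, or 0.784% and 1.28%, a ratio of 0.615. Gm29216 had 65801 and 96996, or 0.658% and 0.970%, a ratio of 0.678. Together they held 2.15% of the labeled and 4.78% of the unlabeled column, a ratio of 0.450. Gm20594 accounted for most of the gap. Gm13340 and Gm29216 alone took 1.44% and 2.25%, a ratio of 0.642.

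By the deposited values, which are per transcript length, the order of the 3 genes changed between the libraries. With values multiplied by transcript length, as shares of all annotated exon rows, Gm13340 came first in both, at 1.25% and 1.44%, and Gm20594 had 0.330% and 0.830%. In labeled RNA Gm13340 ranked 1, Gm20594 ranked 2 and Gm29216 ranked 3 among 121429 exon rows. In unlabeled RNA Gm20594 ranked 1, Gm13340 ranked 2 and Gm29216 ranked 3. The value of Gm20594 was 0.907 times that of Gm13340 in labeled and 1.99 times in unlabeled RNA. The value of Gm29216 was 0.839 and 0.760 times that of Gm13340, so the copies of mt-Co1 kept nearly the same proportion in both libraries. Just below them stood a transcript of Npm1, which codes for the nucleolar protein nucleophosmin, at 62396 in labeled RNA, and an assembled transcript without a gene name (TCONS_00059158) at 83782 in unlabeled RNA. Gm29216, the lowest of the 3 genes, was 1.05 and 1.16 times these values, and Gm20594 was 1.14 and 3.03 times. With the 3 genes themselves left out, the same Npm1 transcript was nearest to each of them by both shares among 80166 rows. Its distance was 2.20 log2 units for Gm20594, 1.24 for Gm13340 and 0.81 for Gm29216. Its own share ratio was 1.12. Among the 5 compared rows nearest to Gm20594 was 1 other nuclear copy, Gm11512, at a distance of 2.70. The 5 nearest to Gm13340 and the 5 nearest to Gm29216 held none.

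**Figure D2:**
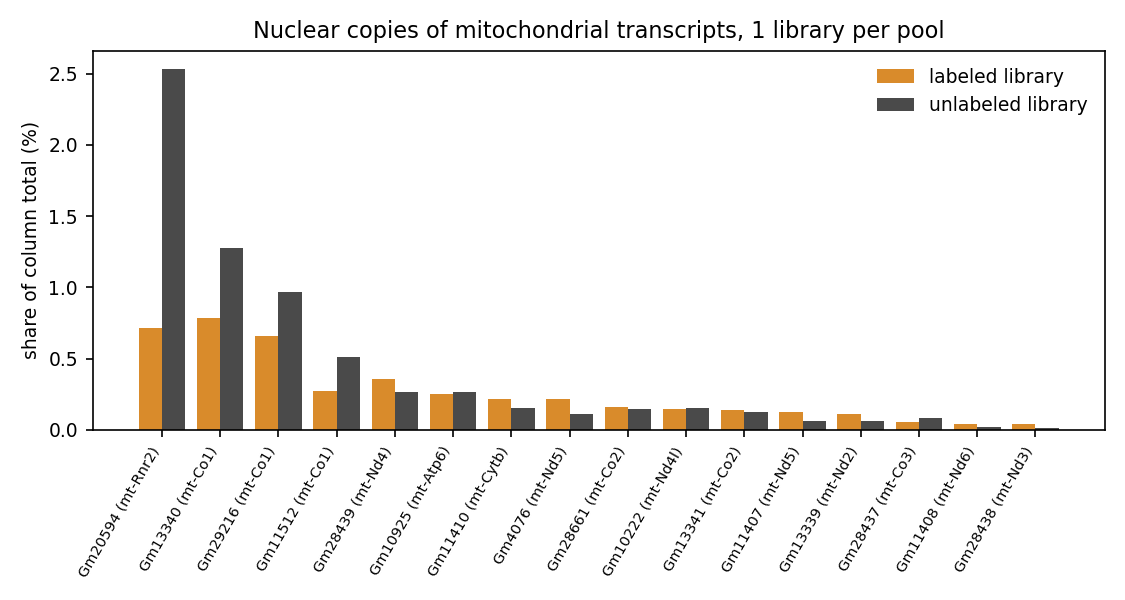
Share of the column total, in percent, in the labeled library (orange) and the unlabeled library (dark grey) for each nuclear copy with over 88% identity to a mitochondrial transcript (named in brackets) and a value above 0. Gm20594, Gm13340 and Gm29216 stand first, with 2.53%, 1.28% and 0.970% of the unlabeled library.

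A share ratio above 2 or below 0.5 was counted as a call. A row at 0 in unlabeled RNA only was counted as above 2, and one at 0 in labeled RNA only as below 0.5. Of the 3 genes, 1 (Gm20594) lay below 0.5 and 0 lay above 2. Of the 79477 exon rows with a mean value of the libraries above 1, 21% lay below 0.5 and 30.7% above 2. Since both columns were used to choose the genes, nothing is read from these counts. The median ratio of the other 79474 rows was 1.05, and 6.24% of them had a ratio below that of Gm20594, 29.1% below that of Gm13340 and 33.1% below that of Gm29216. Over the 1330 other rows with a mean value above 1000 the median was 1.09, and these percentages were 5.41, 26.1 and 31.1. Protein-coding rows with a mean value above 10 had a lower median, 0.692 over 22495 rows, and the ratios of Gm13340 and Gm29216 lay above 42.9% and 48.9% of them. Unprocessed pseudogenes, the class that holds Gm13340 and Gm29216, had a median of 1.25 over 479 rows, and 23.4% and 27.6% of them had a ratio below those of Gm13340 and Gm29216. Single-exon transcripts had a median of 2.06 over 8325 rows, and these percentages were 17.8 and 20.1. The ratios of Gm13340 and Gm29216 thus lay near the middle of coding transcripts but toward the lower end of their own class and of single-exon transcripts. The ratio of Gm20594 lay above 4.98% of the coding and 5.73% of the single-exon rows.

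**Figure D3:**
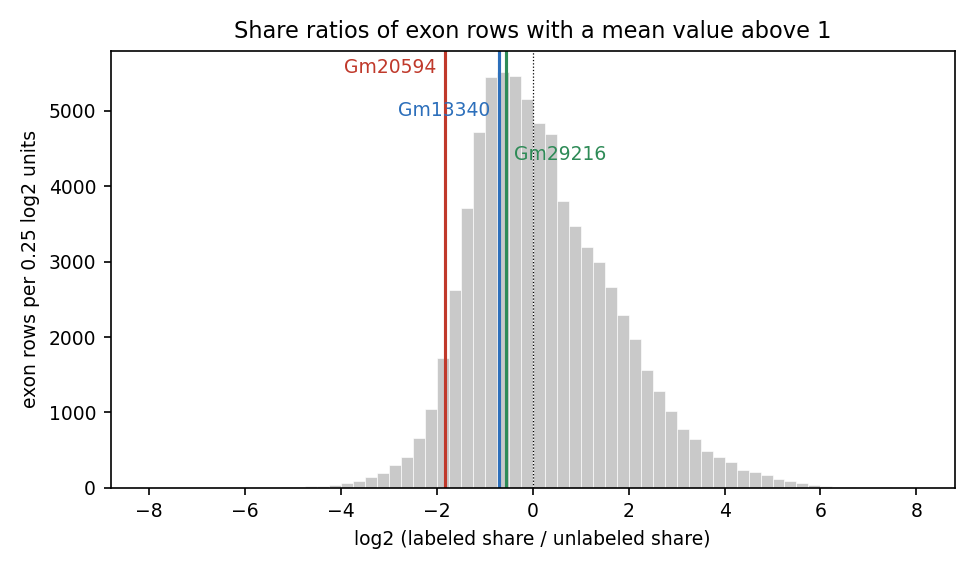
Distribution of the log2 ratio of labeled to unlabeled share over 74834 exon rows with a mean value above 1 and both values above 0, in bins of 0.25 (1 row lies outside the axis). Lines mark Gm20594 at -1.83, Gm13340 at -0.70 and Gm29216 at -0.56, all left of the dotted line of equal shares.

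The base that 4sU replaces was not equally frequent in the 3 genes. Uridine, written as T in the transcripts, made up 30.6% of Gm13340 and 30.5% of Gm29216, and 91.2% of the 110366 annotated transcripts had less than Gm13340. In Gm20594 it made up 25.6%, near the median of 24.3%. The part of base content in the share ratios was not tested.

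A search of the 110366 annotated transcripts against the mitochondrial transcripts placed the 3 genes among 39 nuclear copies, counted where the alignment covered at least 50% of the nuclear transcript. All 39 aligned in the sense direction. The copies fell apart by identity, with 17 above 88% and 22 at 83.5% or less; this limit was set after the values had been seen. Of the 17 copies above 88%, 16 had a mean value of at least 2662, and Gm12155, a fragment with 158 aligned bases of mt-Co2, was at 0 in both libraries. The highest mean among the 22 others was 487, in Gm28925, and 9 of them were at 0 in both. Identity alone did not order the values above the limit. Gm20594 was the highest of all copies at an identity of 88.5%, the lowest of the 17, while 5 copies at 100% had means from 6650 to 30843. The 36 other copies together took 2.13% of the labeled and 1.95% of the unlabeled library, a ratio of 1.09, against 0.450 for Gm20594, Gm13340 and Gm29216.

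**Figure D4:**
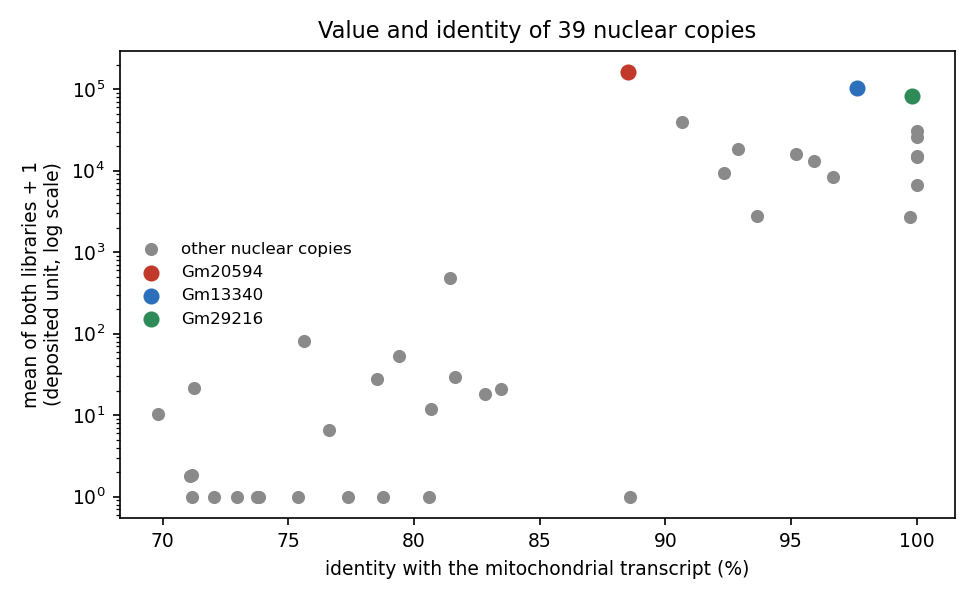
Mean value of both libraries plus 1, on a log scale, against identity with the mitochondrial transcript in percent, for 39 nuclear copies. The 16 copies above 88% with a value stand at 2662 or more, the 22 copies at 83.5% or less stand at 487 or less, and Gm20594 is highest with 88.5% identity.

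Gm29216 is the end of a row of copies. On chromosome 1, 7 annotated pseudogenes lie within 4663 bases, chr1:24611535-24616197, with 99.7 to 100% identity and in the order of the mitochondrial genes from mt-Co1 to mt-Nd4. They correspond to 4653 bases of mitochondrial DNA, chrM:6390-11042. Gm29216 was the highest of them in both libraries, at 1.85 times the next in labeled and 3.68 times the next in unlabeled RNA. Gm28661, a copy of mt-Co2, had 15820 and 14404, a ratio of 1.10. Gm10925, a copy of mt-Atp6, had 25114 and 26348, a ratio of 0.953. Gm28437, a copy of mt-Co3, had 5403 and 7898, a ratio of 0.684, the nearest to Gm29216. Gm28438, a copy of mt-Nd3, had the lowest values, 4084 and 1241, and the highest ratio, 3.29. Gm10222 (mt-Nd4l) and Gm28439 (mt-Nd4) had ratios of 0.960 and 1.35. Neighbours on one stretch of chromosome 1 thus spanned a 4.85-fold range in share ratio, and Gm29216 stood at its lower end.

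Gm13340 is likewise the middle of 3 copies on chromosome 2, chr2:22587291-22590533, which correspond to chrM:4442-7696. Gm13339, a copy of mt-Nd2, had 11087 in labeled and 5806 in unlabeled RNA, a ratio of 1.91. Gm13341, a copy of mt-Co2, had 13798 and 12387, a ratio of 1.11. Gm13340 was the highest of the 3 and had the lowest ratio. No other annotated exon row lay within 20 kb of Gm20594. Assembled transcripts, which have no annotated position, and intron rows were not part of this search.

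Grouped by the mitochondrial gene they come from, the copies of mt-Co1 were closer in share ratio than the neighbours on chromosome 1. Most other genes compared below had only 2 copies, and a range over 2 values tends to be narrow. All 5 copies of mt-Co1 with a mean value above 1, on 5 chromosomes, had ratios from 0.536 to 0.678, although their mean values ran from 10.99 to 102974. Besides Gm13340 and Gm29216 these were Gm11512 with 27281 and 50923, Gm43531 with 61.6 and 100.6 (75.6% identity) and Gm42739 with 8.53 and 13.4 (80.7% identity). Under the same limit, the 2 copies of mt-Co2, Gm28661 and Gm13341, differed 1.01-fold in ratio (1.10 and 1.11) and the 2 copies of mt-Nd5, Gm4076 and Gm11407, differed 1.08-fold (1.91 and 2.06). Copies of mt-Nd2, mt-Nd4, mt-Co3 and mt-Cytb differed 1.26-, 1.41-, 1.43- and 1.57-fold, and those of mt-Nd1, both with means of 52.1 or less, differed 3.44-fold. Gm20594 was the only copy of mt-Rnr2 in the search, so its ratio could not be set beside that of another. These copies can share reads, so their values are not independent. The 3 copies of mt-Co1 above 88% identity together took 1.71% of the labeled and 2.75% of the unlabeled library, a ratio of 0.623.

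Intron rows that span Gm13340 were high as well. Gm13340, Gm13339 and Gm13341 lie inside an intron of Myo3a, which codes for an unconventional myosin of the inner ear and retina, on the strand opposite to it. The intron runs from 22579858 to 22600081, or to 22601109 in 1 transcript. Myo3a has 6 transcripts with an intron row. The 3 whose introns hold the copies had intron values of 363, 2523 and 5712 in labeled and 604, 4253 and 8748 in unlabeled RNA, and the highest of them ranked 2 and 3 among 89935 annotated intron rows. The 3 whose introns do not hold the copies had intron values from 3.05 to 11.5 and from 1.01 to 4.55. Exon values of all 6 were 1.2 or less. The intron rows with the copies had share ratios from 0.593 to 0.653, close to the 0.615 of Gm13340, and those without had ratios from 2.53 to 3.24. Multiplied by the length of the introns, the values of the 3 rows with copies came to 0.933 to 1.07 times the summed product of value and length of the 3 copies in labeled RNA, and to 0.933 to 1.18 times in unlabeled RNA.

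The same was looked for at Gm11512, after its values had been seen. This copy lies in an intron of Stxbp4, on chromosome 11. Unlike the copies in Myo3a, it lies on the same strand as its host gene. Exon values of the 3 Stxbp4 transcripts whose introns hold Gm11512 were 5.32 to 54.9, against at most 1.2 for Myo3a. The 3 Stxbp4 transcripts whose introns hold it had intron values from 290.2 to 813 in labeled and from 483 to 1390 in unlabeled RNA, with ratios from 0.585 to 0.673. The 4 that do not hold it had 11.2 to 19.2 and 1.2 to 2.76, with ratios from 5.77 to 9.35. Here the products came to 2.42 to 2.67 and 2.12 to 2.22 times that of Gm11512. A further 11 copies of 83.5% identity or less lie in introns of 10 other genes. The 26 intron rows concerned reached at most 12.8. These 11 copies had mean values of at most 52.1 (Gm20462) themselves, so no contrast with Myo3a and Stxbp4 is drawn. How reads were divided between exon and intron rows, and whether the libraries keep the strand, is not given in the sources used here. Gm13340, Gm29216 and Gm20594 have 1 exon each and no intron row, so no intron to exon ratio exists for them.

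**Figure D5:**
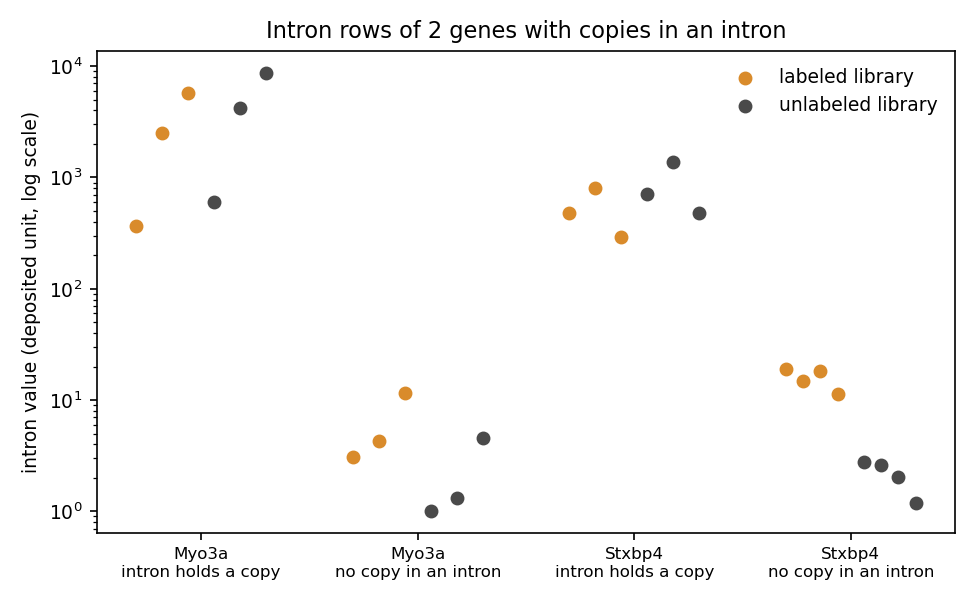
Intron values, on a log scale, of the transcripts of Myo3a and Stxbp4 in the labeled (orange) and unlabeled (dark grey) library, split by whether an intron of the transcript holds a nuclear copy; each point is 1 transcript. Rows with a copy start at 290.2, and rows without one end at 19.2.

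Nuclear genes for subunits of the respiratory complexes showed another pattern than Gm13340, Gm29216 and Gm20594. Whether the values of Gm13340 and Gm29216 come from RNA of mt-Co1 cannot be told, so they are set beside these genes for scale only. Cytochrome c oxidase is built from subunits of both genomes, and subunit 1, the product of mt-Co1, holds the site where oxygen is reduced. Its 10 nuclear subunit genes, taken by their highest transcript, had values of 237 to 2319 in labeled and 62.0 to 812 in unlabeled RNA. Their ratios ran from 1.27 for Cox8a to 3.82 for Cox7a2 with a median of 2.82, so none lay as low as those of Gm13340 and Gm29216. Of the 153 rows of nuclear complex I subunits, among them Ndufb9 and Ndufa7, 72 lay above 2 and 2 below 0.5, with a median of 1.97. Of the 140 rows of complexes III to V, among them Atp5b, Cox7c and Atp5a1, 93 lay above 2 and 1 below 0.5, with a median of 2.40. These counts are to be read against 30.7% and 21% of all rows. By summed shares the contrast was smaller for complexes III to V, with 0.876% of labeled and 0.712% of unlabeled RNA. Their highest row, Atp5b, had a ratio of 1.02. The complex I list took 0.195% and 0.0983%.

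By median ratio, factors of the mitochondrial RNA pathway lay nearer to the 1.05 of other rows. The shares of calls below are to be read against 30.7% of all rows above 2 and 21% below 0.5. Genes of mitochondrial transcription, such as Ssbp1, Tefm and Mterf3, had a median ratio of 1.18 over 87 rows. Of these rows 22 (25.3%) lay above 2 and 5 (5.75%) below 0.5. Genes of mitochondrial RNA processing and decay, such as Slirp, Rexo2 and Pnpt1, had a median of 0.864 over 96 rows. Here 19 (19.8%) lay above 2 and 11 (11.5%) below 0.5. For scale, 70 rows of long-lived messenger RNAs such as Gapdh, Hspa8 and Eef1a1 had a median of 0.629, near the ratios of Gm13340 and Gm29216. Among them 2 (2.86%) lay above 2 and 25 (35.7%) below 0.5. The 24 rows of short-lived messenger RNAs such as Egr1, Klf4 and Myc had a median of 0.525, with 7 (29.2%) above 2 and 12 (50%) below 0.5. The short-lived list thus had the lower median, so a low share ratio is not read as RNA stability here. The ratio of Gm20594 was lower than both medians, but Myc had a lower one, 0.260. Nuclear noncoding RNAs, led by Malat1, Rn7sk and Neat1, had a median of 1.85 over 23 rows, with 11 (47.8%) above 2 and 3 (13%) below 0.5. Rn7sk, an RNA that holds back transcription elongation, had a ratio of 0.300, close to that of Gm20594. All 8 embryonic stem cell markers had a mean value above 1, led by Tdgf1 with 2067 in labeled and 3453 in unlabeled RNA. Of the 10 markers of differentiated or feeder cells 6 did, led by Vim with 159 and 291.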

How the data were processed

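The authors removed reads that mapped to ribosomal RNA, aligned the rest to exonic and intronic sequences (Ensembl, GRCm38) with STAR 2.5.0 and quantified them with RSEM. Whether mitochondrial RNA was part of either sequence set, the read length and the strandedness are not given in the sources used here. The deposited table holds 2 columns of other values, relative abundances called TPM by the authors, for 121429 exon rows and 91702 intron rows. Its columns sum to 10000003 and 9999998.

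The values were used as deposited and divided by the column total. Names, positions and biotypes come from GENCODE M21, in which 110366 exon rows were found; 9661 others are assembled transcripts. The 3 genes were found by symbol. The genes and gene lists were chosen with earlier results of these data known. Nuclear copies were found with BLAST 2.17.0 (blastn, e-value limit 1e-05), whose identity counts gaps. Substitutions were read from local alignments made with Biopython 1.88. Ratios were called above 2 or below 0.5 over exon rows with a mean value above 1. The named rows are the 3 genes, the copies, rows within 20 kb, the highest other rows, the 5 nearest rows by log2 shares, and the 3 highest genes of each list, of which 1 is not reported here; Stxbp4 was added after its values were seen.

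No test could be made on 1 labeled and 1 unlabeled library. The calculation of ratios and calls was tested on simulated data. Alternatives were exon rows as the total, a total without the copies, centring on the coding median of 0.692, subtraction of leakage (0.185 times the unlabeled value), a pseudocount of 1, other filters, rows summed per gene, annotated rows only and, added after the data were seen, values multiplied by transcript length. Python 3.11.15, numpy 2.4.6, pandas 2.3.3 and matplotlib 3.10.9 were used.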

Additional observations from a re-analysis of the deposited data

How the results depend on the processing

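Of 120 alternative values of 27 results, 98 kept within 1.5 times the value given, 22 moved further and 0 reversed. This tally does not measure robustness, because some alternatives could hardly move a result. A pseudocount of 1 is small beside values this high, and a new total scales all share ratios alike. No paired analysis was possible because each pool holds a single library. In the main setting, of the 24 other copies with a mean value above 1, 6 lay above 2 and 1 below 0.5. Of all rows 30.7% lay above 2 and 21% below 0.5. The 6 include the microRNA gene Mir6481, which was at 0 in unlabeled RNA. Subtracting leakage lowered the share ratio of Gm20594 to 0.0958 and of the 3 genes together to 0.266. It put 3 of the 3 genes and 5 other copies below 0.5, beside 26617 of all 79477 rows (33.5%). An alternative added after the data were seen multiplied values by transcript length and took all annotated exon rows as the total. It gave Gm20594 0.330% of labeled and 0.830% of unlabeled RNA, Gm29216 0.334% and 0.348%, and Gm13340 1.25% and 1.44%. Gm20594 then no longer came first in unlabeled RNA. The ratios were 0.397, 0.961 and 0.870. Transcript length cancels in the ratio of a single gene, so these 3 ratios changed only through the totals. The same alternative gave the 3 genes together 2.62% of unlabeled RNA and a ratio of 0.732, and the other copies 1.04% of unlabeled RNA. Centring on the coding median put 11 other copies above 2 and 0 below 0.5. Of all rows it put 32230 (40.6%) above 2 and 7896 (9.93%) below 0.5. With exon rows as the total 0 other copies lay below 0.5, beside 13790 of all 79477 rows. A mean value above 10 left 10407 of 48693 rows (21.4%) above 2. Summing rows per gene gave 8150 above 2 and 4280 below 0.5. The number of summed rows is not given here, so no share is read from these counts. This alternative moved Gm13340 to rank 2 and Gm29216 to rank 5 in labeled RNA. The cause of these changes was not tested, beyond the transcript lengths, the totals and the number of rows that the alternatives themselves alter. Depth is unknown and sets no limit that could be given.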

Other observations

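Mir6481, a microRNA gene on chromosome 3, was the only nuclear copy of a mitochondrial transfer RNA in the search, with 64 bases aligned to mt-Tf at 82.8% identity. It was listed at 34.4 in labeled RNA and at 0 in unlabeled RNA, so no ratio is given. Of the 37 mitochondrial transcripts 15 had a nuclear copy among the annotated transcripts of the table, including all 13 messenger RNAs, and 12 had one above 88% identity. The ribosomal RNA mt-Rnr1 had none. The copies of mt-Nd6, the 1 messenger RNA annotated on the minus strand of mitochondrial DNA, and of mt-Nd3 had the highest ratios among copies above 88% identity, 2.35 in Gm11408 and 3.29 in Gm28438. Copies of a second group on chromosome 1, with identities of 80.6 to 81.6%, lay far below the copies of the same genes in the row that ends with Gm29216: Gm28927, a copy of mt-Co3, had 18.2 and 38.2 against 5403 and 7898 for Gm28437, and Gm28926, a copy of mt-Atp6, was at 0 in both libraries against 25114 and 26348 for Gm10925.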
